A study of Mus musculus with 278 samples.

Results

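Adult luminal cells of the mouse mammary gland were divided into a cycling and a resting class by their transcripts of 10 proliferation genes. Luminal cells line the lumen of the milk ducts, and they comprise hormone-sensing mature cells and progenitors that give rise to milk-producing cells. Of 43 adult luminal cells, 39 had at least 100000 reads and 1500 genes and were retained. A cell was called cycling when at least 3 of the following genes had a read, namely Mki67, Top2a, Cdk1, Ccnb1, Birc5, Ube2c, Tpx2, Aurkb, Bub1 and Cenpf. By this rule 10 cells were cycling (25.6%, exact binomial 95% interval 13.0 to 42.1%). The other 29 cells were called resting, a name that says only that fewer than 3 of the markers were read. The whole series held 278 cells, of which 112 were adult cells sorted as basal and 123 were total epithelium from pregnant mice.

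All cells came from untreated FVB/NJ mice. The luminal cells were sorted from glands of adult females as lineage-negative CD29lo CD24+ cells, captured on Fluidigm C1 chips, which hold single cells in separate chambers for cDNA synthesis, and sequenced as 1 library per cell. The labels name no animal, so each class counted as 1 sample and no test between the classes was run. No difference below has a replicate check, and no interval covers the spread between animals. Intervals of ratios cover the counting error of pooled reads only and leave out the spread between cells. The reads carried no molecular identifiers, so amplified copies of a molecule count as separate reads. Intervals of shares cover the sampling of these cells. Mature luminal cells are marked by the estrogen receptor Esr1 and the progesterone receptor Pgr, whereas progenitors are marked by Kit, Elf5 and the milk-associated genes. A dividing cell copies its DNA in S phase with the replication enzymes and then builds a spindle in G2 and mitosis with cyclin B, mitotic kinases and kinesins.

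Comparisons were made at equal depth. Before thinning, the cycling cells had 484876 to 1006438 reads in kept genes (median 794296) and the resting cells 173195 to 976910 (median 613575). Each cell was therefore thinned at random to 100000 reads, and levels are given as reads per 100000 (1 read per 100000 is 10 CPM). A gene met the call when its mean level differed by at least 1 on the log2 scale and the share of cells that detected it differed by at least 20 percentage points in the same direction. A gene read in nearly all resting cells could not gain 20 points and so could not meet the call as higher. For such genes, a missed call does not mean an unchanged level. Of 11405 genes, 1156 met the call as higher in cycling cells (10.1%) and 230 as lower (2.02%). With the cell that had the most reads of each gene left out as well, 6.17% still met it as higher and 1.21% as lower. By the ratio alone, 2396 genes were higher (21%) and 2781 lower (24.4%). The excess of higher genes was thus seen only with the share criterion. Of all genes, 66.4% were detected in a larger share of cycling than of resting cells. The median log2 ratio of all genes was -0.05. No gene separated the classes completely, with 0 genes higher in every cycling cell than in every resting cell and 0 genes lower in every one.

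The rule was met in unequal measure. Cells 20 and 40 read all 10 markers, cells 33, 34, 36 and 38 read 9 and cell 24 read 7, whereas cells 6, 16 and 43 read exactly 3. No cell had 4, 5 or 6 markers, and of the resting cells 5 had 2, 12 had 1 and 12 had 0. The 3 cells just inside the rule had few of these reads. Cell 16 had 2 unthinned reads of Mki67, 2 of Top2a and 1 of Cenpf, cell 6 had 42 of Mki67, 4 of Ccnb1 and 1 of Cenpf, and cell 43 had 2 of Cdk1, 8 of Ccnb1 and 45 of Birc5. Just outside the rule, resting cell 22 had 121 unthinned reads of Mki67 and 96 of Top2a, and resting cell 7 had 113 of Mki67 and 8 of Cenpf. The summed level of the 10 markers after thinning was 131 to 683 reads per 100000 in the 7 cells with 7 or more markers and 1 to 5 in the 3 cells with 3, against 0 to 67 in resting cells. When the rule was applied to thinned reads, 7 cells were cycling.

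The 7 cells with many markers had title numbers between 20 and 40. Of the 17 retained cells numbered 1 to 19, 0 had 7 or more markers, against 7 of the 22 numbered 20 to 43. The labels do not say whether the number stands for a chip, a run or an animal. Within the cells numbered 20 or higher (8 cycling, 14 resting), 26 of 29 G2/M genes and 16 of 26 S phase genes met the call as higher. Resting cell 26 went against its sort label, with 3 pan luminal genes (21 reads per 100000), 0 reads of Krt8 and Epcam and 3129 reads per 100000 of fibroblast genes. It counts among the resting cells with more mature luminal than progenitor genes detected (4 against 3). Of its 1439 mature luminal reads per 100000, 1334 were of Ly6a.

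Promoters of genes with a higher mean level in cycling cells are shown first, since many G2/M genes are known to be repressed in resting cells through a promoter element called CHR that lies near CCAAT boxes. The genes shown were not all read in the same cycling cells. Cdk1 is itself a rule marker, so its difference followed from the choice of cells. TTTGAA and TTCGAA (CHR) and CCAAT were searched on both strands in windows of 250 bases before to 50 after each gene's start (RefSeq, GRCm38.p6), and the capitals mark every match. The sequences are Cdk1 (chr10:69352863-69353162, minus strand), the kinase that drives entry into mitosis; Ccnb2 (chr9:70421505-70421804, minus strand), a B-type cyclin; Kif23 (chr9:61946750-61947049, minus strand), a kinesin of cell division; and Pclaf (chr9:65890073-65890372, plus strand), a PCNA-binding factor detected in every cycling cell.
Cdk1: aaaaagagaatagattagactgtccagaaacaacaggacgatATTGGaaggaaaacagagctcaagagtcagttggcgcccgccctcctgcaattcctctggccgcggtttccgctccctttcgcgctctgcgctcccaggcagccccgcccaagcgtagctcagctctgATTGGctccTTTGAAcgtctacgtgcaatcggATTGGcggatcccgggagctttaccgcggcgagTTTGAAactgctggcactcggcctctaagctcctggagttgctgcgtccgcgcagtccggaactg
Ccnb2: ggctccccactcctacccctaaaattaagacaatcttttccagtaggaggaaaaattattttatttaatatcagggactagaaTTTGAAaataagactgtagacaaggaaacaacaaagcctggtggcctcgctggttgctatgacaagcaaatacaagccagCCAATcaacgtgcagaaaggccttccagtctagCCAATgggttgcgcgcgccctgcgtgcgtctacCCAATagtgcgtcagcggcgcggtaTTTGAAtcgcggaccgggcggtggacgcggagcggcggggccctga
Kif23: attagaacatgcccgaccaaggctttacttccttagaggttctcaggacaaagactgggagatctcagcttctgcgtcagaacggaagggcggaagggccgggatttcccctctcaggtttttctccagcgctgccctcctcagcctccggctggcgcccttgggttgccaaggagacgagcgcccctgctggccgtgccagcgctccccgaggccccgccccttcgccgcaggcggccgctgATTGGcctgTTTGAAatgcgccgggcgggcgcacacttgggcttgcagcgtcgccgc
Pclaf: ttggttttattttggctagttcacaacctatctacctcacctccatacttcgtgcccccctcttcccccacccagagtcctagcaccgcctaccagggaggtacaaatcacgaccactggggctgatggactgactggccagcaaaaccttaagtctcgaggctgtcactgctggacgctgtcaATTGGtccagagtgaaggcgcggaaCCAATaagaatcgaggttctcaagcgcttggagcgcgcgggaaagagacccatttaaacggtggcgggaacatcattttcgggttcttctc

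The Cdk1 and Ccnb2 windows each held 2 CHR matches and 3 CCAAT matches. The Kif23 window held 1 of each within a few bases, and the Pclaf window held 0 CHR and 2 CCAAT matches. Of the G2/M list, 27 of 30 genes had a window in the table. A CHR match was found for 21 of them (77.8%) and both elements for 18 (66.7%). Over all 27025 genes with a window the shares were 21.7% and 8.61%, and over the 8898 tested genes with one 16.6% and 7.20%. For the S phase list, 4 of 22 genes (18.2%) had a CHR match and 13 (59.1%) a CCAAT match, against 41.1% of all genes. Of the mature luminal list, 15 genes had a window. Of these, 33.3% had CHR, 80% CCAAT and 26.7% both, so by gene the share with CCAAT was above the 74.1% of the G2/M list. A gene counted when any of its windows matched. The 15 mature luminal genes had 23 windows and the 27 G2/M genes 29, so these shares were not on equal terms. A match describes letters in the window and was not tested as a binding site.

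The cycling cells had higher levels of genes for spindle assembly and division that the rule did not use. Of 30 G2/M genes, 29 passed the filter on low values (1 CPM in at least 3 retained cells) and 24 met the call as higher, with a median log2 ratio of 4.03 (10.1% of all genes met it). These counts describe cells that were chosen by genes of the same program, so they are not independent evidence of it. Cenpe, a kinesin that moves chromosomes to the spindle equator, had a mean of 32.6 reads per 100000 in cycling and 0.552 in resting cells (log2 ratio 5.88, interval 5.16 to 6.71) and was detected in 8 of 10 against 2 of 29 cells. Its reads were uneven, with 143 in cell 40, 92 in cell 20 and 53 in cell 43, against a highest value of 15 in a resting cell. Ndc80, part of the kinetochore, averaged 23.1 against 0.690 reads per 100000 (log2 ratio 5.07, 4.41 to 5.80). Spc25, of the same complex, averaged 17.9 against 0.172 (6.70, 5.45 to 8.34), and cell 20 held 50% of its cycling reads.

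Of the 29 tested G2/M genes, 8 had no read in any thinned resting cell. For these the ratio was set against a floor of 3 reads over the class and is a lower bound. Kif23 was detected in 4 cycling cells, with 91 reads per 100000 in cell 40, 38 in cell 20, 14 in cell 34 and 9 in cell 36, and its log2 ratio was at least 7.20. Kif11, the motor that pushes spindle poles apart, was at least 6.95, the phosphatase Cdc25c at least 6.31 and the kinase Plk1 at least 6.25. Cdc20, which activates the anaphase-promoting complex, was found in 4 cycling cells at 3 to 7 reads per 100000 and was at least 3.95. Aurka, Kif20a, Kif2c, Ncaph and Pttg1 did not meet the call. Pttg1, the securin that delays the separation of sister chromatids, was detected in 9 of 10 cycling and 17 of 29 resting cells (log2 ratio 0.52). For Aurka, a spindle-pole kinase, resting cell 22 held 96.5% of the resting reads, and the log2 ratio moved from 0.67 to 5.46 without it.

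Replication genes followed with smaller ratios. All 26 S phase genes passed the filter. Of them 14 met the call as higher and 0 as lower, against 10.1% and 2.02% of all genes. The median log2 ratio was 2.58. The cells were chosen by genes of the G2/M program, so neither these counts nor the smaller ratios are independent evidence. Rrm2, a subunit of the enzyme that makes deoxynucleotides, averaged 50.7 reads per 100000 in cycling and 0.931 in resting cells (log2 ratio 5.77, 5.21 to 6.38). Cell 36 had 238 reads per 100000 of it, cells 34, 20 and 24 had 82, 74 and 72, and cells 16, 38 and 43 had 0, while the highest resting cell (37) had 15. Cdc45, part of the replicative helicase, was detected in 4 cycling cells (44, 20, 16 and 9 reads per 100000) and in 0 resting cells, a log2 ratio of at least 6.43. Cdc6, which loads that helicase, was at least 6.08. Of the MCM helicase subunits, Mcm4 (log2 ratio 2.25) and Mcm7 (2.54, not without cell 34) met the call, whereas Mcm3 (2.48), Mcm5 (0.72), Mcm6 (-0.06) and Mcm2 (-2.16) did not. All reads of Mcm2 in resting cells came from cell 37. Pcna, the sliding clamp of replication, was detected in 7 of 10 cycling and 16 of 29 resting cells (log2 ratio 1.32) and did not meet the call. Without the 3 cells with exactly 3 markers, 19 S phase genes met it.

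**Figure D1:**
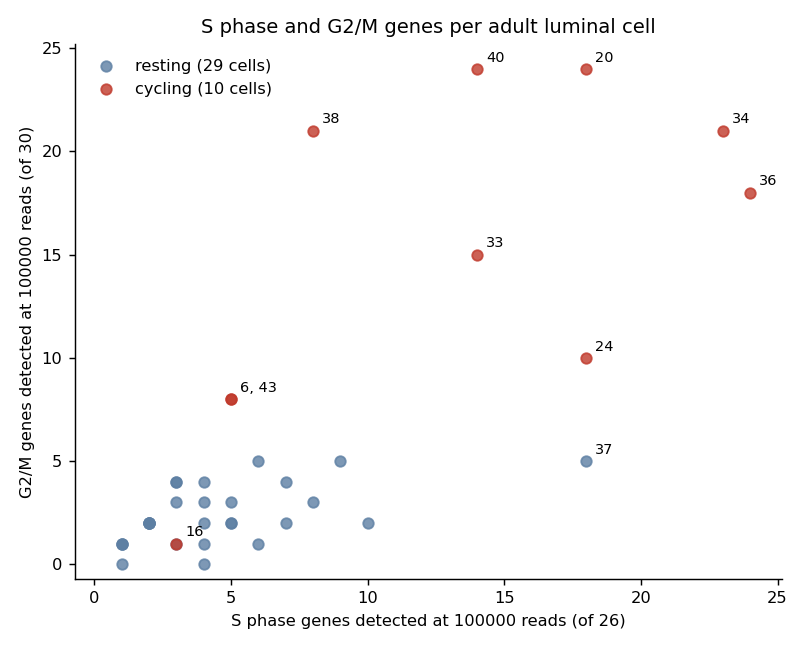
S phase genes (x axis, of 26) against G2/M genes (y axis, of 30) detected in each retained adult luminal cell at 100000 reads, with 1 point per cell and title numbers beside the cycling cells and resting cell 37. The 29 resting cells lie at or under 5 G2/M genes, 9 of 10 cycling cells lie above, and cell 38 (8 S phase, 21 G2/M genes) and cell 24 (18 and 10) mark opposite sides of the cycling cells. The classes were set by 10 other genes of the G2/M program.

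The cycling cells differed among themselves in which of the programs was high. The plot of genes per cell shows 9 of 10 cycling cells above all resting cells in G2/M genes, whereas 2 of 10 were above all resting cells in S phase genes. The second count was set by resting cell 37, and without it 6 of 10 were above. The rule used genes of the same program as the G2/M list and no gene of the S phase list. The 2 counts therefore do not compare the programs on equal terms. Cell 36 had 1002 reads per 100000 in S phase genes and 213 in G2/M genes, cell 34 had 771 and 232, and cell 24 had 504 and 173. These 3 cells had more S phase than G2/M reads. Cell 40 had 159 reads per 100000 in S phase and 823 in G2/M genes, and cell 38 had 59 and 277. Cell 20 was high in both (536 and 709) and cell 33 was even (253 and 264). Of the cells with 3 markers, cell 16 was low in both lists, with 28 and 15 reads per 100000. Cells 6 and 43 were low in S phase reads (38 and 33) and had 92 and 109 in G2/M genes, with 8 G2/M genes each, and the resting cells ranged from 1 to 344 (median 45) and from 0 to 141 (median 23).

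Resting cell 37 stood apart from the rest of its class. It read 0 of the 10 rule markers, yet it detected 18 S phase genes, as many as cycling cells 20 and 24, and 5 G2/M genes. The next highest resting cell (3) had 10 S phase genes. In cell 37 Pcna was at 24, Rrm2 at 15 and Tyms, the thymidylate synthase, at 9 reads per 100000, while Cdc6, Cdc45 and Ccne2 were at 0. It also had the most genes of any resting cell, 5260 at 100000 reads. Without it, 15 S phase genes met the call.

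DNA repair genes were also higher in cycling cells. Of 9 genes, 8 were tested and 7 met the call as higher, with a median log2 ratio of 4.91 (10.1% of all genes met it). The cells were chosen by cell cycle genes, so this count is not independent evidence. Exo1, a repair nuclease, had a log2 ratio of 6.60 (interval 4.69 to 9.68) with 76% of its cycling reads in cell 33. Brca2 averaged 11.2 against 0.310 reads per 100000 (log2 ratio 5.17, 4.20 to 6.34) and Brca1 4.30 against 0.172 (4.64, 3.31 to 6.33). Brca2 was at 68 reads per 100000 in cell 33 and 37 in cell 36. Cell 36 held 77% of the Brca1 reads, and Brca1 no longer met the call without that cell. Rad54l (0.21) did not meet it, and resting cell 22 held 92% of its resting reads.

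Chromatin and tubulin genes were examined as a further group. The summed level of the 15 genes was 159 to 1109 reads per 100000 in cycling cells (median 627) and 27 to 365 in resting cells (median 145). Of them 8 met the call as higher (10.1% of all genes met it) and the median log2 ratio was 2.02. This count too is not independent evidence, since the cells were chosen by cell cycle genes. Tubb5, a beta-tubulin, had a lowest value of 21, a median of 141 and a highest of 336 reads per 100000 in cycling cells, and 0, 20 and 67 in resting cells. Its log2 ratio was 2.52 (2.38 to 2.65), but reads were found in all 10 cycling and in 24 resting cells, so it missed the share criterion, as did Smc4, Dek, Ran and Hmgb1. Stmn1, a regulator of microtubules, averaged 28.6 against 5.03 reads per 100000 (log2 ratio 2.51, 2.21 to 2.80) and Hmgb2, a chromatin protein, 12.2 against 1.86 (2.71, 2.24 to 3.20). Both met the call with and without the cell that had the most reads.

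**Figure D2:**
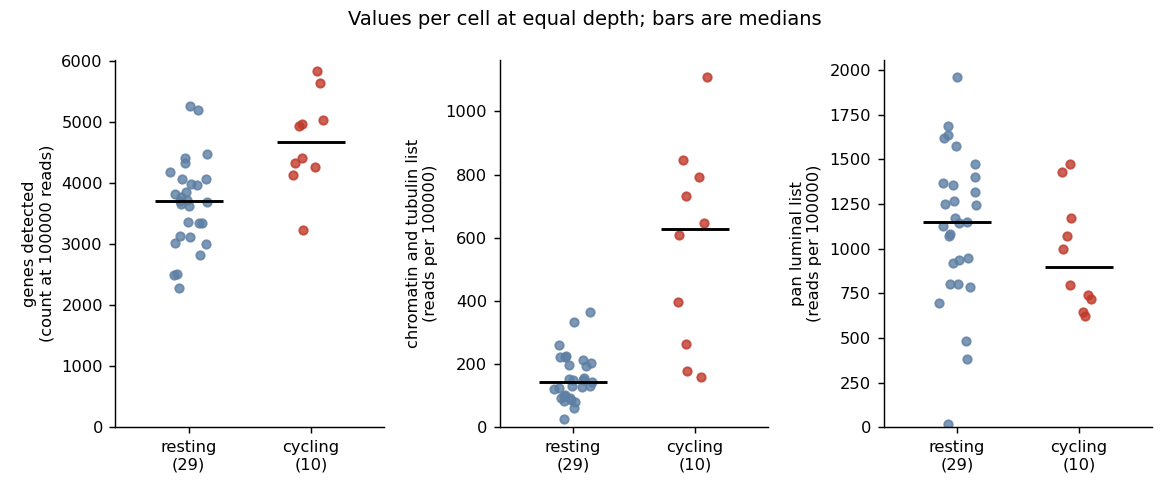
Genes detected per cell, summed level of 15 chromatin and tubulin genes and summed level of 16 pan luminal genes (y axes, genes or reads per 100000) in 29 resting and 10 cycling cells thinned to 100000 reads, with 1 point per cell and bars at the medians. Cycling medians were higher for genes (4673 against 3700) and for chromatin and tubulin (627 against 145), whereas the pan luminal levels of the classes overlapped (medians 896 and 1150).

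Transcription factors that regulate these genes were examined next. Of 12 tested regulators 4 met the call as higher, against 10.1% of all genes. They were Foxm1 (log2 ratio at least 4.71), Mybl2 (at least 3.54), E2f7 (at least 2.95) and E2f8 (at least 5.38). All 4 were at 0 in thinned resting cells. Foxm1 and E2f8 were read in 0 resting cells without thinning as well. They passed the filter on low values through cycling cells alone and could be called only as higher. Since the cells were chosen by cell cycle genes, the count of regulators is not independent evidence. Mybl2 and E2f7 were read in 2 cycling cells each and missed the call without the cell with most reads. Foxm1 and Mybl2 activate G2/M genes, and E2f7 and E2f8 repress E2F targets late in S phase. Foxm1 was found in cells 33, 34, 20 and 36, at 14, 7, 5 and 1 reads per 100000. Myc was detected in 8 of 10 cycling and 14 of 29 resting cells, yet its mean was lower in cycling cells, 8.10 against 13.0 reads per 100000 (log2 ratio -0.68, -1.05 to -0.33). E2f1 was read in 0 thinned cells and, without thinning, in 1 cycling and 0 resting cells, so it was not detectable at this depth.

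None of the G1 cyclins and their kinases met the call, of 6 tested. Ccnd1, the cyclin D that mediates growth signals, had a lowest value of 13, a median of 61.5 and a highest of 135 reads per 100000 in cycling cells and 0, 39 and 198 in resting cells (log2 ratio 0.23, 0.10 to 0.36). Cdk4, its partner, was at -0.09 (-0.29 to 0.11). Among the inhibitors of the cycle and genes of quiescence, 3 of 14 tested met the call as higher and 0 as lower, against 10.1% and 2.02% of all genes. They were Cdkn2d (log2 ratio 2.77, 2.12 to 3.47), an inhibitor of Cdk4 and Cdk6, the pocket protein Rbl1 (1.62, 0.58 to 2.66, and 0.92 without cell 20) and Ccng1 (1.23, 0.96 to 1.5), a p53 target. Rbl1 and Ccng1 both missed the call without cell 20. Cdkn1a, which encodes p21, was detected in 10 of 10 cycling and 15 of 29 resting cells. Its levels overlapped, with a lowest value of 1, a median of 8 and a highest of 99 reads per 100000 in cycling cells and 0, 1 and 154 in resting cells, and its log2 ratio was 0.34 (0.09 to 0.59). Btg2, an antiproliferative gene, averaged 61.3 against 127 reads per 100000 (log2 ratio -1.05), with reads in 9 cycling and 27 resting cells.

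Lineage was examined next, with 18 mature luminal and 18 luminal progenitor genes. The classes overlapped in both. Cycling cells detected 2 to 15 mature luminal genes (median 12) and resting cells 1 to 15 (median 11), and for progenitor genes the values were 1 to 13 (median 8.5) and 2 to 14 (median 8). Without thinning the medians were 13 and 13 for mature luminal genes and 9 and 8 for progenitor genes. More mature luminal than progenitor genes were detected in 6 of 10 cycling cells (60%, 26.2 to 87.8%) and in 19 of 29 resting cells (65.5%, 45.7 to 82.1%). More progenitor genes were detected in 2 cycling cells (20%, 2.52 to 55.6%) and in 10 resting cells (34.5%, 17.9 to 54.3%), and the other 2 cycling cells were even. With 1 sample a class, no difference in lineage was tested.

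**Figure D3:**
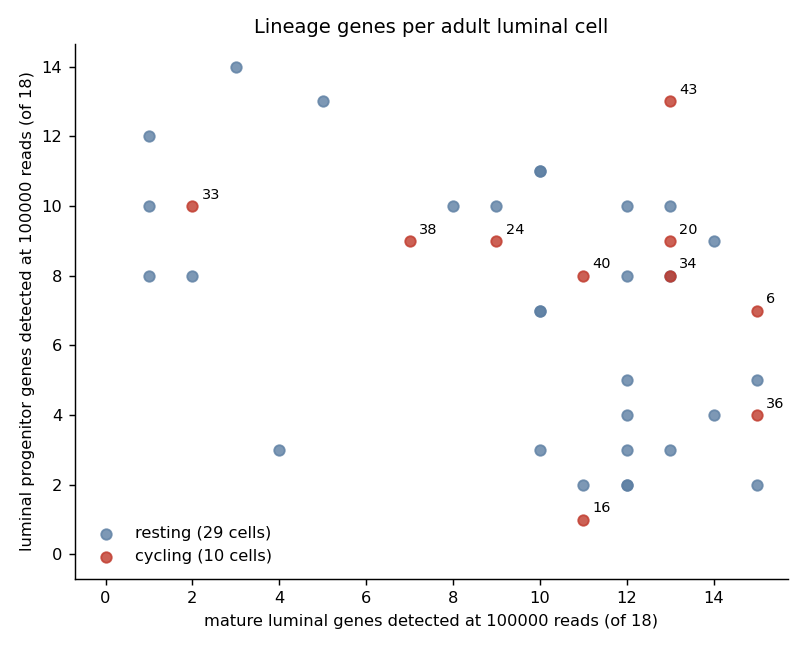
Mature luminal genes (x axis, of 18) against luminal progenitor genes (y axis, of 18) detected in each retained adult luminal cell at 100000 reads, with 1 point per cell and title numbers beside the 10 cycling cells. Cycling cells lie among the resting cells over the whole range, from cell 36 (15 mature luminal, 4 progenitor genes) to cell 33 (2 and 10).

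Cycling cells were found at several places of that range, as the plot of lineage genes shows. Cell 36 detected 15 mature luminal genes and 4 progenitor genes, had 0 reads of the milk list and had 113 reads per 100000 of Foxa1 and 10 each of Esr1 and Pgr. Cell 33 was at the other end, with 2 mature luminal and 10 progenitor genes, 0 reads of Esr1, Pgr, Foxa1, Areg and Cited1, and 409 reads per 100000 of Wfdc18. Cell 33 also detected 5 of 6 fibroblast genes (1639 reads per 100000) and 4 of 15 basal genes (276), more fibroblast reads than any other cycling cell. Cell 38 held genes of both lists, with 40 reads per 100000 of Esr1, 136 of Foxa1 and 510 of Areg beside 18 of Elf5, 768 of Wfdc18 and 1968 of the casein Csn2. It had the highest summed milk level of the cycling cells, 5951 reads per 100000. Cells 20, 24, 34 and 40 each detected 9 to 13 mature luminal genes and 8 or 9 progenitor genes. Cells 6 and 16, with few rule markers, had 15 and 11 mature luminal and 7 and 1 progenitor genes. Cell 43 had 13 of each, and also 6 basal, 4 endothelial and 3 fibroblast genes.

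The hormone receptors were read in most cycling cells. Esr1 had a lowest value of 0, a median of 9 and a highest of 40 reads per 100000 in cycling cells and 0, 3 and 47 in resting cells. It was detected in 9 of 10 cycling cells (90%, 55.5 to 99.7%) and 18 of 29 resting cells (62.1%, 42.3 to 79.3%), and without thinning in 9 and 21. Its log2 ratio was 0.67 (0.35 to 0.98). Pgr was detected in 7 of 10 (70%, 34.8 to 93.3%) and 21 of 29 cells (72.4%, 52.8 to 87.3%), and without thinning in 9 and 24, with means of 8.30 and 15.2 reads per 100000 (log2 ratio -0.87, -1.23 to -0.53). Both receptors were read in 7 cycling cells (70%, 34.8 to 93.3%) and 14 resting cells (48.3%, 29.4 to 67.5%), and neither in 1 cycling cell (33) and 4 resting cells. Of the 7 cells with many markers, 6 read Esr1 and 4 read Pgr. At 50000 reads, Esr1 was read in 2 of 85 adult basal cells (2.35%) and Pgr in 8 of 85 (9.41%), against 8 and 6 of 10 cycling cells, so both were above the share in a cell type that should lack them. Prlr, the prolactin receptor, was read in all cells of both classes, at 57 to 966 reads per 100000 in cycling cells (median 468.5) and 1 to 1809 in resting cells (median 478).

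**Figure D4:**
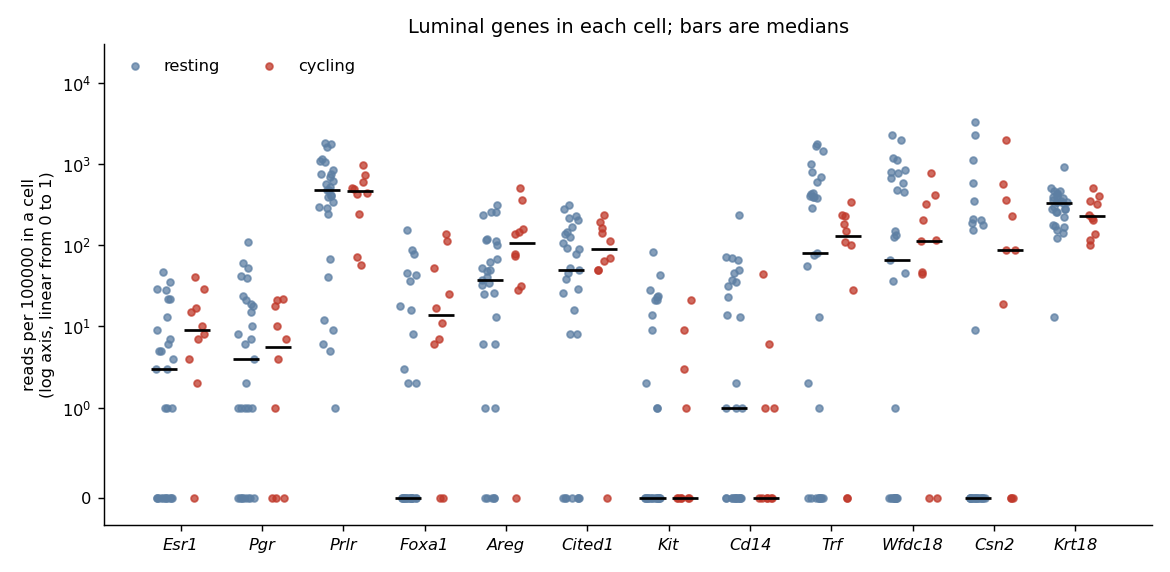
Reads per 100000 (y axis, logarithmic above 1 and linear from 0 to 1) of 12 luminal genes in each of 29 resting and 10 cycling cells, with 1 point per cell and bars at the class medians. The classes overlap for every gene shown, and the highest Trf, Wfdc18, Cd14 and Kit values are in resting cells.

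Of 17 tested mature luminal genes 1 met the call as higher (5.88%), a share under the 10.1% of all genes. That gene was Foxa1, the pioneer factor that opens chromatin for the estrogen receptor. It averaged 36.8 reads per 100000 in cycling and 16.9 in resting cells (log2 ratio 1.12, 0.92 to 1.32) and was detected in 8 of 10 (80%, 44.4 to 97.5%) and 12 of 29 cells (41.4%, 23.5 to 61.1%), and without thinning in 10 and 18. The levels overlapped, up to 136 in cell 38 and 154 in the highest resting cell. The ratio was 0.79 with another draw of the thinning, 0.75 without cell 36 and 0.61 without cell 38, and Foxa1 missed the call in each. Without the 3 cells with exactly 3 markers it was 1.49 and met the call, as did Esr1 as higher (1.02, read in 6 of 7 cells) and Calca, which encodes calcitonin, as lower (read in 0 of 7 and 6 of 29 cells). Areg, an EGF-family growth factor that mediates estrogen-driven ductal growth, averaged 152 against 69.0 reads per 100000 (log2 ratio 1.14, 1.04 to 1.24), with 510 in cell 38, 361 in cell 16 and 0 in cell 33, and the ratio was 0.71 without cell 38. Tnfsf11, the RANKL signal that hormone-sensing cells send to progenitors, was read in 0 cycling and 4 resting cells after thinning, with 79% of the reads in resting cell 23, and in 0 and 12 cells without thinning. The median log2 ratio of the list was 0.17, and it turned to -0.21 without the 3 cells with exactly 3 markers.

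The progenitor list leaned lower in cycling cells without any gene that met the call. Of 16 tested genes 14 had a ratio under 0, and the median log2 ratio was -1.11. The pan luminal list also had 14 of 16 ratios under 0, with a median of -0.30. Detection of the progenitor genes was near that of all genes. Of the 16 genes 11 were detected in a larger share of cycling cells and 5 in a smaller one, against 66.4% and 31.4% of all genes. These counts therefore show nothing particular to the list. Trf, transferrin, averaged 137 against 376 reads per 100000 (log2 ratio -1.46, -1.54 to -1.37), Wfdc18 202 against 403 (-1.0, -1.07 to -0.93), Cd14 5.20 against 23.9 (-2.20, -2.64 to -1.79) and the receptor Kit 3.40 against 9.31 (-1.45, -2.01 to -0.94). Single cells weighed on these means. Cell 43 held 84.6% of the cycling Cd14 reads and cell 24 held 61.8% of the Kit reads, and the log2 ratios without them were -4.75 and -2.69. The class medians of Trf were 128 in cycling and 79 in resting cells and those of Wfdc18 113.5 and 66, the opposite order, while the highest resting cells reached 1756 and 2266. Reads of Kit were found in 4 cycling and 12 resting cells, and reads of Cd14 in 4 and 16. Milk protein genes varied most. Csn2, a beta-casein, ranged from 0 to 1968 reads per 100000 in cycling and from 0 to 3326 in resting cells, and 0 of 6 tested milk genes met the call.

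Genes shared by luminal cells did not meet the call in either direction, 0 of 16, against 10.1% of all genes as higher and 2.02% as lower. Krt8, Krt18, Krt19 and Epcam were read in 28 or 29 of 29 resting cells, so they could not have met it as higher. Krt18 had a lowest value of 100, a median of 226 and a highest of 503 reads per 100000 in cycling cells and 13, 326 and 917 in resting cells (log2 ratio -0.30, -0.37 to -0.24). Krt8 was at -0.18, Krt19 at -0.03 and Epcam at -0.15, and all were read in every cycling cell. Of 8 tested basal genes 0 met the call. The summed basal level ranged from 0 to 349 reads per 100000 in cycling and from 0 to 1179 in resting cells, and the top value was that of resting cell 35, which detected 12 of 15 basal genes and held all the reads of Krt5. Fibroblast, endothelial, immune, pericyte and erythroid genes met the call in 0 cases. Resting cells 5, 26 and 27 each read all 6 fibroblast genes, and cells 27 and 43 each read 4 endothelial genes. Without cells 26, 27, 35 and 43, 25 G2/M and 16 S phase genes met the call. That comparison kept resting cell 5 and cycling cell 33, which had 1125 and 1639 reads per 100000 of fibroblast genes. It therefore does not describe the classes without all such cells.

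Cycling cells had more genes detected at equal depth. At 100000 reads the values were 3233 to 5842 genes (median 4673) in cycling and 2280 to 5260 (median 3700) in resting cells, and without thinning 4067 to 7402 (median 5864.5) and 2805 to 6681 (median 4540). Of all genes tested, 66.4% were detected in a larger share of cycling than of resting cells and 31.4% in a smaller one. The number of genes thus moved with the class, and its part in the called genes was not tested. When only cells with 4000 or more genes were compared (9 cycling, 8 resting), 28 of 29 G2/M and 17 of 26 S phase genes met the call as higher, while over all genes 1360 were higher and 864 lower. The share of mitochondrial reads was 3.06 to 18.6% (median 6.95%) in cycling and 2.23 to 17.8% (median 7.46%) in resting cells.

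**Figure D5:**
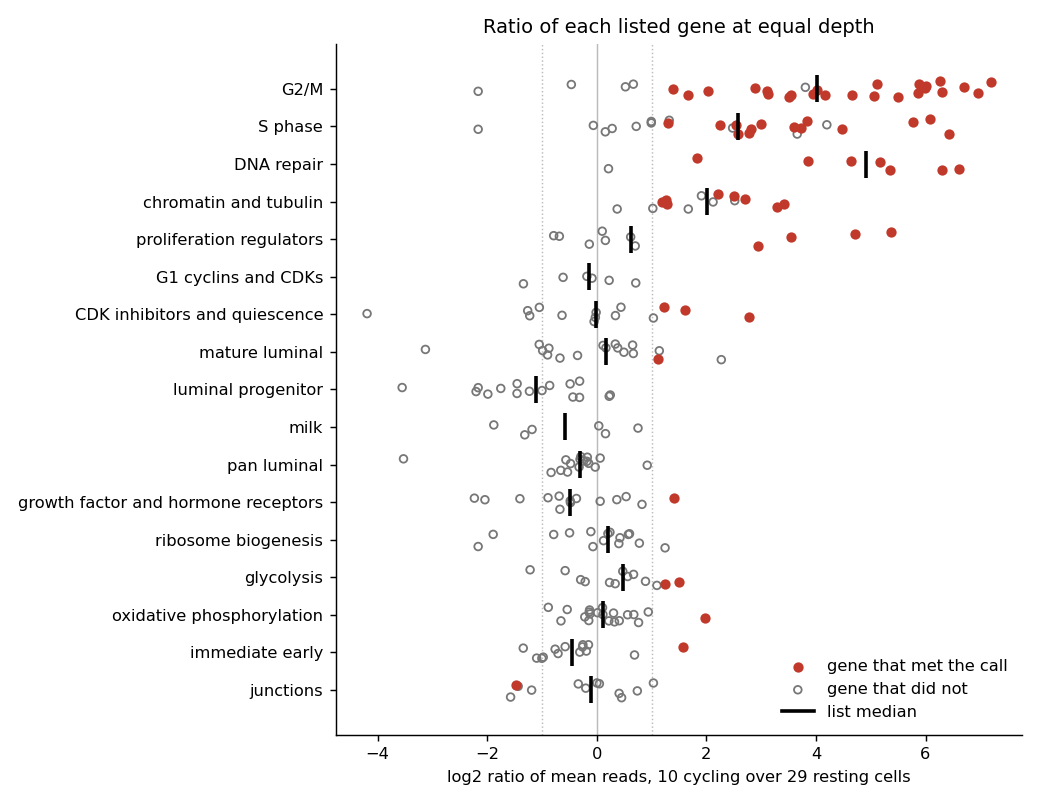
Log2 ratio of mean reads (x axis, 10 cycling over 29 resting cells at 100000 reads) of each tested gene in 17 lists, with 1 point per gene, filled where the gene met the call, and bars at the list medians. G2/M (median 4.03), DNA repair (4.91), S phase (2.58) and chromatin and tubulin (2.02) lie to the right of 0, whereas the luminal progenitor median is -1.11.

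Genes of growth and energy supply showed small ratios. Of 13 glycolysis genes 2 met the call as higher, Gpi1 (log2 ratio 1.5, 1.19 to 1.81) and Gapdh (1.24, 0.06 to 2.39), a share near the 10.1% of all genes, and the list median was 0.47. Gapdh rested on few reads, a mean of 1.30 against 0.552 reads per 100000, and it no longer met the call without cell 24. In oxidative phosphorylation 1 of 20 genes met the call as higher (5%, against 10.1% of all genes). It was Cyc1 of complex III, which averaged 17.2 against 4.38 reads per 100000 (log2 ratio 1.97, 1.63 to 2.32), with reads in 9 cycling and 13 resting cells. Most genes of that list were read in nearly all resting cells and could not meet the call as higher. Of 15 genes of ribosome biogenesis 0 met the call. The nucleolar proteins Npm1 (log2 ratio 0.60, 0.51 to 0.69) and Ncl (0.20, 0.13 to 0.28) were read in every cell, so neither could meet it. Among 15 tested growth factor and hormone receptors Notch1 alone met the call (6.67% as higher, against 10.1% of all genes). Its log2 ratio was 1.42 (0.71 to 2.12), and it did not meet the call without cell 34. Fgfr2, which carries stromal FGF signals, was at -0.48 and Erbb3 at -1.40.

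Genes of the immediate early response, which sorting itself can induce, leaned lower. Of 14 genes 12 had a ratio under 0 and the median log2 ratio was -0.44. Egr1 averaged 55.8 against 112 reads per 100000 (log2 ratio -1.0, -1.13 to -0.87) and Fosb 51.2 against 101 (-0.98, -1.11 to -0.84). Dusp1, a phosphatase of MAP kinases, was the only one to meet the call (7.14% as higher, against 10.1% of all genes). Its log2 ratio was 1.58 (1.17 to 1.99), and cell 43 held 44% of its cycling reads. Its ratio was 0.90 without cell 43 and 0.58 without the 3 cells with exactly 3 markers, and it was -0.021 when those 3 cells were counted as resting, none of which met the call. Of 12 junction genes 1 met the call as lower and 0 as higher, against 2.02% and 10.1% of all genes. It was Ocln, a tight junction protein (log2 ratio -1.48, -2.19 to -0.84), with reads in 3 of 10 cycling and 17 of 29 resting cells. Without the 3 cells with exactly 3 markers Ocln was at -0.97 and missed the call. Of 9 tested interferon genes and 5 of antigen presentation 0 met the call.

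Outside all lists, 205 genes passed the naming rule as higher and 31 as lower, and the 10 with the largest ratio in each direction are given. Several are known for division. Pbk, a mitotic kinase, averaged 21.2 against 0.0345 reads per 100000 (log2 ratio 9.26, interval 6.77 to 14.6, from 1 resting read). Mad2l1, of the spindle checkpoint, averaged 31.9 against 1.55 (4.36, 3.91 to 4.85), and Prim2, a primase subunit, 14.1 against 0.379 (5.22, 4.33 to 6.25). Tyms-ps (log2 ratio 4.77) is a pseudogene of Tyms, so its reads cannot be told apart with certainty from those of the gene. Pclaf, whose promoter is shown above, was read in 10 of 10 cycling cells (100%, 69.2 to 100%) and 3 of 29 resting cells (10.3%, 2.19 to 27.4%). It had a lowest value of 1, a median of 37 and a highest of 53 reads per 100000 in cycling cells and 0, 0 and 8 in resting cells, and the 3 cells with few markers had 8, 2 and 1. Its log2 ratio was 6.04 (5.21 to 7.01). The others were Gatm, an enzyme of creatine synthesis (at least 7.34), Ppa2, a mitochondrial pyrophosphatase (5.79), Fyco1, an adaptor of autophagosome transport (5.30), Ammecr1 (5.52) and Msantd4 (4.43). Cell 16 held 76% of the Ammecr1 and 57% of the Msantd4 reads.

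Genes that met the call as lower had less in common. Frmd4b, a scaffold of epithelial polarity, was read in 1 of 10 cycling and 15 of 29 resting cells (means 0.200 and 24.8 reads per 100000, log2 ratio -6.96, -10.004 to -5.10). Ccnt1, the cyclin of the elongation factor P-TEFb, was at -4.09, Gatad2b, of the NuRD chromatin complex, at -4.03, and Grina at -3.79. Fgfr1, a receptor for fibroblast growth factors, was read in 3 of 10 and 24 of 29 cells (log2 ratio -3.33, -4.05 to -2.69). Hivep1 (-3.16), Fam168a (-3.0), Appl2 (-2.77), Scaf8 (-2.43) and Tbrg3 (-2.39) complete the set. Each was at 0 in the median cycling cell except Grina, with a median of 0.5, so these ratios rest on detection in few of 10 cells. Without thinning, Fgfr1 was read in 8 cycling cells (80%) and 25 resting cells (86.2%), and Frmd4b in 4 (40%) and 17 (58.6%). The shares of these genes and of Ccnt1, Gatad2b, Grina and Scaf8 then differed by under 20 points.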

How the data were processed

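Per the labels and the methods of the study, the authors mapped read pairs to mm10 with Subread 1.4.6 and assigned them to genes with featureCounts and the RefSeq annotation of Rsubread. The deposited counts are raw read pairs per Entrez gene, with no molecular identifiers. Per the labels, 43 adult luminal cells were used. Symbols and coordinates came from GRCm38.p6, the build of mm10, for 25275 of 27179 IDs. IDs without a symbol (1.20% of reads), 15 mitochondrial and 123 ribosomal genes were removed, and genes needed 1 CPM in 3 retained cells. Cells were thinned without replacement. Ratios of summed counts have exact conditional intervals and shares Clopper-Pearson intervals (95%), with a floor of 3 counts over a class at 0. No test between the classes was run, since cells are not replicates. No doublet caller was run, and the authors viewed capture sites by microscope. No pair of cells had identical counts. The code was tested on simulated data with Python 3.11.15, scipy 1.17.1 and edgeR 4.0.16 (TMM scaling).

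The classes, lists and members were chosen with earlier results of these data known. Listed genes may be named, besides the 10 highest and 10 lowest ratios among called genes in no list with 10 reads per 100000, detected in 50% of cells of the higher class and called without their top cell. Alternatives were minimums of 50000 reads and 1000 genes (for the count of cycling cells alone, which stayed at 10), another depth (50000 reads), no thinning, another draw, other marker rules, leaving out each cycling cell, TMM scaling, no filter and the ratio alone. Alternatives chosen after seeing the data left out the cells with exactly 3 markers, cells with under 4000 genes, cells 26, 27, 35 and 43, cells numbered under 20, or cell 37.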

Additional observations from a re-analysis of the deposited data

Results flagged for a closer look

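In 27 measures over the 10 cycling cells, the highest or lowest cell was compared with its nearest neighbour by Dixon's ratio, which chance alone exceeds in about 1 of 20 groups. Cell 16 had 18.6% mitochondrial reads and stood above the other cycling cells, and it detected 10 pan luminal genes, the fewest. Cell 36 detected 10 proliferation regulators and 2 erythroid genes, more than the others. Cell 38 detected 10 immediate early genes, the fewest. Cell 43 detected 4 endothelial and 2 pericyte genes, more than the others. Cell 16 and cell 43 are among the 3 cells with exactly 3 rule markers, and the part of these values in the comparisons was not tested.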

How the results depend on the processing

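No paired analysis was possible because the replicate numbers only name cells and no test between the classes was run. Of 97 called genes that are named, 95 kept their direction under every alternative run on them, but calls were lost for 15 with 2 or more markers, 14 without thinning, 13 at 50000 reads, 11 with another draw, 11 in cells with 4000 or more genes and 10 without the top cell. The exceptions were Dusp1, at a log2 ratio of -0.021 with each of the 3 rules that left 7 cycling cells (3 markers after thinning, 5 reads per marker or 5 markers) and the others counted as resting, and Appl2, at 0.55 in cells with 4000 or more genes. Those 3 rules gave 436 genes lower, median log2 ratios of 3.19 for S phase, 4.31 for G2/M and -0.31 for mature luminal genes, and 3 lineage genes called. Leaving out the cells with exactly 3 markers gave 438 genes lower, medians of 3.09, 4.48 and -0.21, and 3 lineage genes. A rule of 2 or more markers (15 cycling cells) gave medians of -0.23 for mature luminal and -0.65 for progenitor genes and 3 lineage genes. The ratio alone called 2396 genes higher, 2781 lower, 21 lineage genes and 35 genes of other lists. Without thinning the G2/M median was 4.55 and 2 lineage genes were called, and another draw called 0. At 50000 reads the progenitor median was -0.79. Without the top cell of each gene, and without cells 26, 27, 35 and 43, 2 lineage genes were called. Cells with 4000 or more genes gave 864 genes lower, a progenitor median of -0.67, 6 lineage genes and 12 of other lists. Those 6 lineage genes were all lower, with 2 each of the mature luminal, progenitor and milk lists. Cells numbered 20 or higher gave 448 genes lower, medians of 4.97 for G2/M and -0.65 for progenitor genes, 2 lineage genes and 17 of other lists. Leaving out each cycling cell in turn gave 1106 to 1308 genes higher, 212 to 298 lower, 12 to 18 S phase and 24 to 25 G2/M genes, S phase medians of 2.12 to 2.73, G2/M medians of 3.75 to 4.18, 0 to 3 lineage genes and 5 to 10 of other lists. The cause of these shifts was not tested. With 10 cycling cells and 100000 reads, genes at or under the floor in both classes (565 genes) could not be compared.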
